A study of Mus musculus with 5 samples.

Results

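The MYC, MAX and MXD network was examined in mouse neuroblastoma cells of the Neuro2A line, as 5 sublines with 1 Affymetrix array each. The members were the 10 genes Mycn, Myc, Mycl, Max, Mxd1, Mxd3, Mxd4, Mxi1, Mnt and Mga, and they were chosen by gene symbol: every probe set that the platform annotation gives 1 of these symbols alone was taken, which gave 10 of the 18193 genes named on the array and 27 of 45037 probe sets. The set of genes was proposed with earlier results of these arrays known, so the test results below are a description and no independent support. The 3 control lines were parental Neuro2A, Neuro2A carrying an empty vector, and Neuro2A carrying a vector against EGFP. The 2 knockdown lines were stable lines carrying vector 1 or vector 2 against KDM7, a histone demethylase encoded by Kdm7a. All lines share the Neuro2A background and the culture condition, and all but the parental line carry a vector. The labels do not say whether a line is 1 clone, or whether cultures ran in parallel, so the spread within an arm holds differences between lines as well as between arrays. Signals are the deposited intensities on a linear scale. Log2 changes are knockdown minus control, and errors are standard errors (SE) from limma unless named as SD.

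MYC, MYCN and MYCL are basic helix-loop-helix leucine zipper factors that bind DNA as dimers with MAX and activate genes of growth, ribosome assembly and metabolism. MXD proteins, MXI1 and MNT pair with the same partner and recruit SIN3 co-repressors to the same sites. MGA, a larger protein with a T-box as well, pairs with MAX inside the Polycomb complex PRC1.6. In neuroblastoma MYCN is best known as an amplified driver gene. MYC, MYCN and MYCL are largely interchangeable in the genes they can bind.

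Dimers of the network prefer the E-box CACGTG, a palindrome and so the same on either strand. RefSeq promoter windows of GRCm38.p6, 300 bases from 250 before to 50 after an annotated start, were matched for 9 of the 10 genes (11 windows). The letters were found in 3 of the 11 windows, those of Max, Mnt and Mxd4, against 2349 of 32851 windows of all genes (7.15%). The surroundings of each match follow, 5′ to 3′ on the gene's strand with the E-box in capitals, to show where the network's own genes hold the letters its dimers bind. The match begins 219 bases before the start of Mxd4 (chr5:34187897-34187956, minus strand), 123 before that of Mnt (chr11:74830774-74830833, plus strand) and 3 before that of Max (chr12:76962231-76962278, minus strand). These are matches of letters and no measured binding.
Mxd4: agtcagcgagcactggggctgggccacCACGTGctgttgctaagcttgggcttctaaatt
Mnt: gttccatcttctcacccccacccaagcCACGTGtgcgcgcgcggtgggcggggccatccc
Max: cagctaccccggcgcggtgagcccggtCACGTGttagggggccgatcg

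The targeted gene was low on both arrays labelled KDM7 knockdown: the probe set 1435867_at of Kdm7a had signals of 660, 648 and 872 in the 3 controls (parental, empty vector, EGFP) and 231 and 143 in knockdown lines 1 and 2. Probe sets 1456150_at and 1427359_at also lay below every control line in both, at log2 changes of -2.13 and -1.86. In limma 1456150_at passed (adjusted p 0.0468), and 1435867_at (0.128) and 1427359_at (0.869) did not. Of the dimmer probe sets, not tested, 1459820_at lay below every control line and 1459821_x_at overlapped. Of 17 neuroblastoma marker genes, 15 had a probe set of their own and 12 passed the brightness filter, Phox2a, Hand2, Gata2, Gata3, Isl1, Dbh and Chga among them. Th (highest signal 68.6), Nefl (18.2) and Nefm (9.09) did not pass. Of the 12, 4 were below every control line in both knockdown lines (33.3%, beside 10.2% of all genes) and 1 above (8.33%, beside 12.7%). Their median log2 change was -0.20, and -0.22 without the parental line, beside 0.03 over all genes, with 3 of the 12 above 0. In limma 4 of the 12 were lower and 1 higher at an unadjusted p under 0.05, and none passed after adjustment. Their summed signal, which the brightest genes carry, was 62245 to 66758 in control and 63506 to 69901 in knockdown lines. Of markers of other cells with a probe set of their own, 2 of 4 Schwann cell, 2 of 7 fibroblast, 0 of 5 blood and 0 of 4 endothelial genes passed. The summed signal of the 2 Schwann genes was 194 to 452 in control and 327 to 488 in knockdown lines, and that of the 2 fibroblast genes 107 to 156 and 79.4 to 177. The part of these markers in the results below was not tested.

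Of the 27 probe sets of the network, 16 passed the brightness filter, a mean log2 signal at or above the median of all probe sets, which is a signal of 40.5. They cover 8 genes, with Mycn, Mxd3 and Mga at 3 probe sets each, Mxd4 and Mxi1 at 2, and Myc, Max and Mnt at 1. None of the 3 probe sets of Mycl or the 3 of Mxd1 passed. Signals of different probe sets are not on a common scale, so levels are compared between lines within a probe set only. The highest and the lowest line differed by under 2-fold for 12 of the 16 probe sets, against 78.8% of all 22519 that passed the filter. The median log2 difference between them was 0.68 for the 16 and 0.58 for all. The other 4 were 2 probe sets of Mycn and 1 each of Mxd4 and Mga, and the first of these spanned 21.6-fold.

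**Figure D1:**
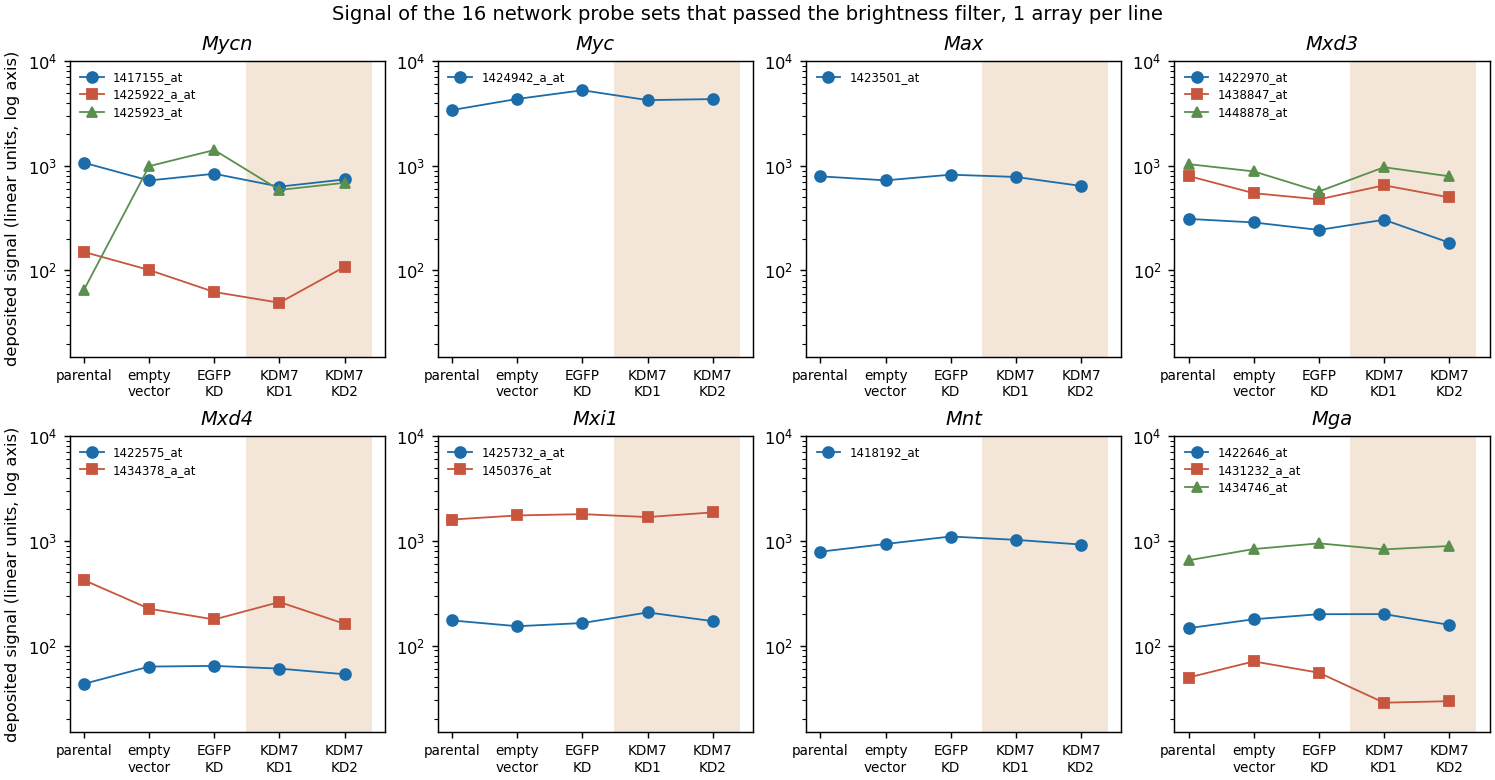
Deposited signal (log axis) of the 16 network probe sets that passed the filter, by gene, in the 5 lines with 1 array each; the shaded area holds the knockdown lines. Mycn 1425923_at is at 65.3 in the parental line and between 587 and 1413 in the other lines, while the other Mycn probe sets are highest in the parental line.

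The probe sets of Mycn disagreed on which line is low. Probe set 1425923_at had a signal of 65.3 in the parental line, 991 in the empty vector line, 1413 in the EGFP line, and 587 and 687 in knockdown lines 1 and 2. The parental line thus lay 8.99-fold below the lowest of the vector-carrying lines, a gap that 14 of 22519 probe sets, this one included, reached (0.0622%). A parental line at least 2-fold below every other line was seen for 1.59% of probe sets, and among the 16 of the network for 1 of them. Probe set 1417155_at, with 1068 in the parental, 723 in the empty vector, 838 in the EGFP, and 632 and 740 in the knockdown lines, put the parental line highest. The dim 1425922_a_at did so as well, at 150.2 against 101, 62.2, 49.1 and 108. According to the platform annotation, 1425922_a_at and 1425923_at derive from 1 sequence record and 1417155_at from another, so probe sets of 1 record ran opposite ways in the parental line. Which of these probe sets follows the Mycn transcript in the parental line was not tested. In bulk RNA, fewer cells with a transcript and less of it per cell cannot be told apart. Relative to the mean of the 5 lines, the parental line was at -2.99 on the log2 scale by 1425923_at, 0.44 by 1417155_at and 0.79 by 1425922_a_at.

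With the 3 control lines, whether Mycn was lower or higher in the knockdown lines depended on the probe set. Without the parental line the changes of all 3 probe sets were below 0, and none passed in limma. By 1425923_at the knockdown lines lay above the parental line and below both vector-carrying controls, so the groups overlapped. Its signal was 823 ± 689 (SD, n = 3) in control and 637 ± 71.0 (SD, n = 2) in knockdown lines. Its log2 change was 0.50 (SE 1.39) with 3 controls and -0.90 (SE 0.20) without the parental line. In limma the adjusted p was 0.972 and 0.805, so neither passed, and the unadjusted p without the parental line was 0.00281. The gap between the higher knockdown line and the lower vector-carrying control was 1.44-fold. By 1417155_at the signal was 876 ± 176 (SD, n = 3) in control and 686 ± 76.8 (SD, n = 2) in knockdown lines, with a log2 change of -0.34 (SE 0.20, with 0.916 as limma's adjusted p). Line 2 lay within the control range, above the empty vector line. Without the parental line that change was -0.19 (SE 0.17). By 1425922_a_at the log2 change was -0.43 (SE 0.47), and -0.12 (SE 0.47) without the parental line. Knockdown line 1 was the lowest and line 2 the second highest of the 5 lines.

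**Figure D2:**
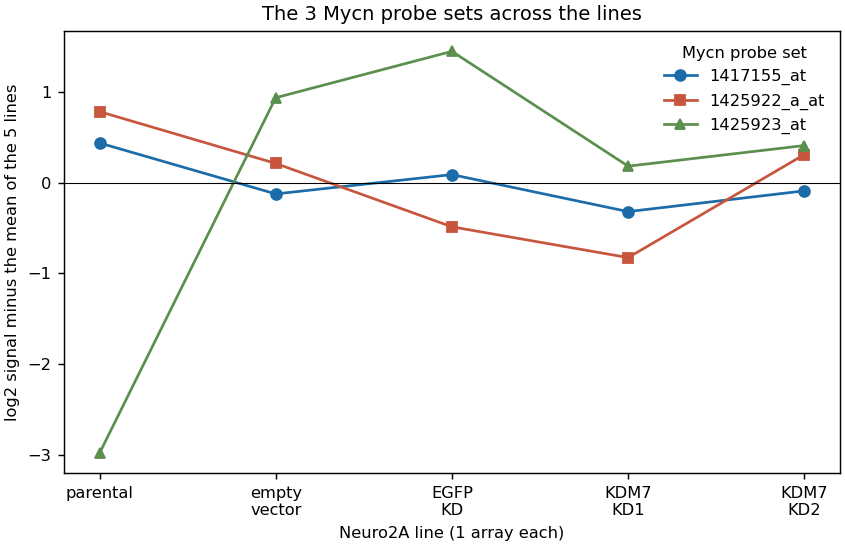
Log2 signal of the 3 Mycn probe sets in each line (1 array each), as the difference from that probe set's mean over the 5 lines. In the parental line 1425923_at is at -2.99 and the other probe sets are at 0.44 and 0.79.

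Myc, the founding member of the family, had 1 probe set, 1424942_a_at, with a signal of 3408 in the parental, 4348 in the empty vector and 5264 in the EGFP line, and 4236 and 4334 in knockdown lines 1 and 2. The parental line was lowest and the EGFP line highest, and both knockdown lines fell inside the control range. The signal was 4340 ± 928 (SD, n = 3) in control and 4285 ± 69.8 (SD, n = 2) in knockdown lines, and the log2 change was 0.0041 (SE 0.17). Without the parental line it was -0.16 (SE 0.12, with 0.896 as limma's adjusted p). Both knockdown lines then lay below both controls, by 1.00-fold at the nearest pair, which is no separation beyond rounding.

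Mycl, the third MYC gene, was dim throughout. Probe set 1422088_at ranged from 2.45 to 12.7, 1422087_at from 4.68 to 29.1 and 1434777_at from 2.91 to 114. The last was at 2.91 in the parental line, 37.1 in the empty vector line, 114 in the EGFP line and 33.7 and 33.6 in the knockdown lines, so that 1 of these 5 signals was over 40.5. These probe sets were not tested, and nothing here shows that such signals exceed background.

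Max encodes the shared dimer partner of the MYC, MXD, MXI1, MNT and MGA proteins. Its probe set 1423501_at had 792 in the parental, 725 in the empty vector and 822 in the EGFP line, with 782 in knockdown line 1 and 642 in line 2. Line 2 was the lowest of the 5 lines and line 1 lay inside the control range. The 5 lines spanned 1.28-fold, a narrower span than that of 76.9% of all probe sets tested. The log2 change was -0.14 (SE 0.17, with 0.939 as limma's adjusted p).

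Among the MXD repressors, Mxd1 was not above the filter, and all 3 probe sets of Mxd3 and the brightest of Mxd4 were highest in the parental line. Mxd1 1434830_at was even across the lines at 35.6 to 43.7, with a mean signal of 40.4 just under the filter. Mxd1 1455104_at ranged from 8.29 to 78.6 and 1422002_at from 5.39 to 11.1. Mxd3, an MXD gene known from cells in S phase, had signals by 1448878_at of 1036 (parental), 883 (empty vector), 568 (EGFP), 968 (knockdown line 1) and 793 (line 2). By 1438847_at these were 798, 547, 477, 650.2 and 499, and by 1422970_at 311, 287, 244, 305 and 184. All 3 probe sets put the parental line first and knockdown line 1 above line 2. The EGFP line was lowest by 1438847_at and 1448878_at, and knockdown line 2 by 1422970_at. Their log2 changes were 0.12 (SE 0.26), -0.06 (SE 0.25) and -0.24 (SE 0.26), with signs that differed between probe sets and no separation of the groups.

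Mxd4, an MXD gene of differentiated cells, had signals by its brightest probe set, 1434378_a_at, of 422 in the parental, 225 in the empty vector and 177 in the EGFP line, and of 260.2 and 161 in the knockdown lines. The parental line lay 1.62-fold above the next line. The log2 change was -0.32 (SE 0.38) and became 0.04 (SE 0.29) without the parental line. The dim 1422575_at went the other way, with the parental line lowest at 43.0 and the remaining lines at 53.1 to 63.9. Of the probe sets under the filter, 1434379_at ranged from 19.2 to 56.7 and 1422574_at from 8.78 to 69.5. The latter derives from the same record as 1422575_at, and 1434379_at from the same record as 1434378_a_at. Mxi1 encodes a further MAX partner with a SIN3 binding region. Its probe set 1450376_at, the one of narrowest span among the 16, had 1597 in parental cells, 1749 with the empty vector, 1798 with the EGFP vector, and 1687 and 1870.0 in the knockdown lines, a span of 1.17-fold. By 1425732_a_at, which spanned 1.35-fold, it had 174, 153 and 164 in the controls against 207 and 171 after knockdown, with a log2 change of 0.20 (SE 0.22).

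Mnt, the MAX-binding repressor found in most cell types, had 788 in the parental, 933 in the empty vector and 1099.9 in the EGFP line by 1418192_at, and 1022 and 922 in the knockdown lines. Both knockdown lines lay inside the control range (log2 change 0.06, SE 0.18). Its other probe set, 1418193_at, derives from the same record but ranged from 2.09 to 50.5 and did not pass the filter.

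Mga gave the 1 probe set, among the 16 that passed the filter, in which both knockdown lines lay outside the control range. Among the 11 that did not pass, both lines also lay below every control line by Mycl 1422087_at and Mxd4 1422574_at, with nearest lines 1.02-fold and 1.05-fold apart. Over all 45037 probe sets without a filter, the groups did not overlap, on either side, for 9669, of which 5131 passed the filter. Mga probe set 1431232_a_at had 49.5 in the parental, 70.5 in the empty vector and 55.0 in the EGFP line, against 28.4 and 29.4 in the knockdown lines. The groups did not overlap, and the nearest lines were 1.68-fold apart. The signal was 58.3 ± 10.9 (SD, n = 3) in control and 28.9 ± 0.682 (SD, n = 2) in knockdown lines, with a log2 change of -0.996 (SE 0.39). The adjusted p was 0.916 in limma (unadjusted 0.0322), so it did not pass. The knockdown signals are under 40.5 and the control signals over it, so the probe set passed the filter (mean signal 43.7) through its control lines. Its separation and unadjusted p are therefore no support for a change. Adding 32 to every signal brought the log2 change to -0.56. The brighter probe sets of Mga did not share the difference. Probe set 1434746_at had 652, 835 and 946 in the controls and 828 and 892 in the knockdown lines (log2 change 0.10, SE 0.19), and 1422646_at had 146, 178 and 199 against 199.6 and 158 (0.03, SE 0.24). By both, the parental line was lowest. The remaining probe sets, 1433012_at and 1442356_at, ranged from 1.38 to 21.7 and from 2.60 to 40.3. The annotation takes 1431232_a_at, 1433012_at, 1434746_at and 1442356_at each from a record of its own.

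Over the network as a whole, knockdown against control gave no call. In limma, 0 of the 16 probe sets passed at an adjusted p of 0.05, where 2 of 22519 did (0.00888%). An unadjusted limma p under 0.05 was found for 1, against 4.96% of all. This was Mga 1431232_a_at, which passed the filter through its control lines. Without limma's trend and robust options the counts were 0 (0% of all) and 1 (5.56%). The log2 change was above 0 for 9 and below 0 for 7, with a median of 0.01 beside 0.03 over all probe sets. The knockdown pair was above all controls in 0 of the 16 and below all in 1, against 12.6% and 10.2% of all probe sets, or 1 of 16 on either side against 22.8%. At least 2-fold beyond every control was reached by 0 of the 16 and by 0.111% of all. The smallest adjusted p among the 16 was 0.916 in limma.

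Leaving out the parental line, which limits the controls to the vector-carrying lines, still gave 0 of 16 (0.0178% of all) in limma. An unadjusted limma p under 0.05 was then found for 2 of 16 against 5.49% of all. These were Mycn 1425923_at and Mga 1431232_a_at, the latter kept by the filter through its control lines. Both knockdown lines lay below both vector-carrying controls for 4 of 16 (17.7% of all) and above them for 1 (18.5%), in sum 5 of 16 beside 36.3%. The 4 were Mycn 1425923_at, Myc 1424942_a_at, Mxd4 1422575_at and Mga 1431232_a_at, and the 1 above was Mxi1 1425732_a_at, with nearest lines 1.04-fold apart.

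**Figure D3:**
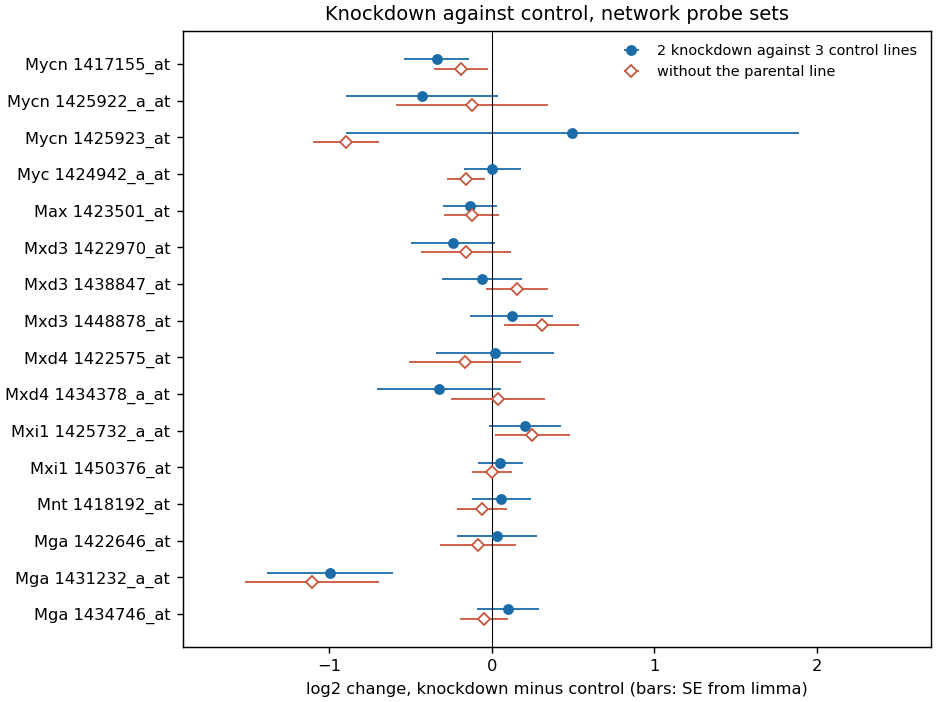
Log2 change (knockdown minus control) with its SE from limma for the 16 network probe sets, with 3 control lines (filled circles) and without the parental line (open diamonds). Mycn 1425923_at moves from 0.50 to -0.90, and Mga 1431232_a_at is at -0.996 and -1.11.

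Each knockdown line was also compared by itself, as 1 array that is assumed to vary like the controls. Such a comparison can miss large changes: Kdm7a 1456150_at, at a log2 change of -2.16 in line 1, had an adjusted p of 0.596 in limma. Line 1 against control gave 0 of 16 calls in limma (0% of all) and 0 at an unadjusted p under 0.05 (1.99% of all). Line 2 against control gave 0 of 16 (0.00444% of all) and 0 unadjusted (2.77%). Line 2 against line 1 gave 0 of 16 (0.00444%) and 0 unadjusted (1.51%). The widest differences of line 2 from line 1 were 1.14 (SE 0.66) for Mycn 1425922_a_at, -0.73 (SE 0.37) for Mxd3 1422970_at and -0.69 (SE 0.59) for Mxd4 1434378_a_at, all at an adjusted p of 1.00 in limma. The line that stood at an end of the order most often was the parental line, lowest of the 5 for 7 of 16 probe sets (31.5% of all) and highest for 6 (23% of all). The 7 include Myc, Mnt and both brighter probe sets of Mga, and the 6 include all 3 of Mxd3.

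The genes whose profile over the 5 lines came nearest to Mycn 1425923_at, by the root mean square distance between centred log2 profiles among 83 probe sets of like span, were Gstm7, Cbs, Inava, Cda and P2rx1, at distances of 0.46 to 0.54. Their parental signals were 3.69 to 10.8, under the filter's level and so uncertain, with 45.2 to 202 in the other lines. Nearest to Mycn 1425922_a_at among 2078 candidates were Zc4h2, Rp2, Nsg2, Syn2 and Dpyd, at 0.09 to 0.18. Syn2, a synaptic vesicle protein, had 1834 in the parental, 1371 in the empty vector and 699 in the EGFP line, and 683 and 1135 in the knockdown lines. Nearest to Mxd4 1434378_a_at among 3039 candidates were Gm11944, Cfp, Zcchc12, Pank1 and Ndufs4, at 0.10 to 0.12. Zcchc12 had 1544, 658 and 543 in the controls and 801 and 504 in the knockdown lines. This likeness is a description over 5 arrays.

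The genes around the network were described by 12 lists of partners, regulators and targets with 211 different genes. Of these, 194 had a probe set with 1 symbol and 169 passed the filter, each taken by its probe set of highest mean signal. In limma 0 of the 169 passed for knockdown against control (0% of 10867 genes taken the same way), and 9 had an unadjusted p under 0.05, or 5.33% beside 5.24% of all genes. The knockdown pair was above all controls in 10 of the 169 (12.7% of all genes) and below for 21 (10.2% of all genes).

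**Figure D4:**
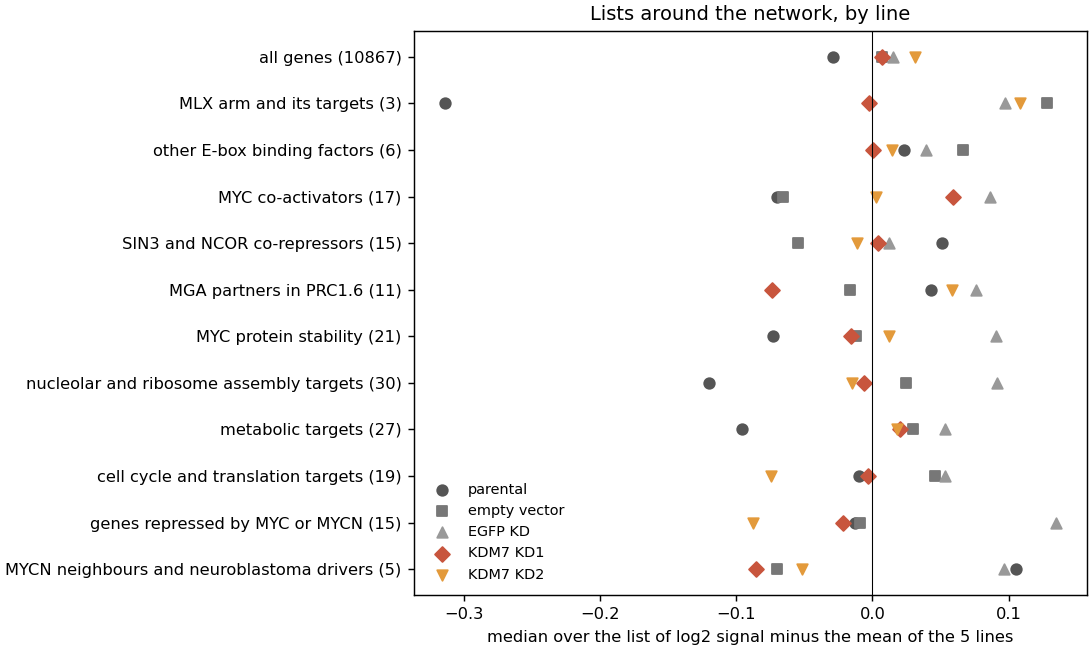
Median over each list, with the number of genes that passed the filter in brackets, of the log2 signal minus the mean of the 5 lines, for each line (1 array each). The nucleolar and the metabolic targets are lowest in the parental line, at -0.12 and -0.10, and highest in the EGFP line. So are the co-activators (-0.07 parental, 0.09 EGFP) and the MYC protein stability genes (-0.07 parental, 0.09 EGFP). The MLX arm (-0.31) and all genes (-0.03) are also lowest in the parental line.

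The 3 lists of genes that MYC activates had median log2 changes of -0.03 to 0.07, beside 0.03 over all genes. Without the parental line the medians were -0.068 (nucleolar), -1.4e-05 (metabolic) and -0.071 (cell cycle and translation), beside 0.015 over all genes. Of 30 nucleolar and ribosome assembly genes, 1 lay above (3.33%) and 3 below (10%) every control line, beside 12.7% and 10.2% of all genes. Their median was -0.03, and 11 (36.7%) had a change above 0, beside 55% of all genes. Gar1, a subunit of box H/ACA ribonucleoproteins, had 3936, 3943 and 3759 in the control lines against 4418 and 4181 after knockdown. Ppan, a ribosome assembly factor, had 1728, 1506 and 1615 against 1370 and 1452. Relative to the 5-line mean this list's median was -0.12 in the parental line, 0.02 in the empty vector line, 0.09 in the EGFP line, and -0.0062 and -0.015 in knockdown lines 1 and 2. Of 27 metabolic targets, 3 lay above (11.1%, beside 12.7% of all genes) and 1 below (3.7%, beside 10.2%). Their median was 0.07 (-1.4e-05 without the parental line), and 17 (63%) were above 0. Pfas, an enzyme of purine synthesis, had 1452, 1976 and 1722 in the control and 2216 and 2354 in the knockdown lines (log2 change 0.42, SE 0.16, and 0.916 as limma's adjusted p). Of 19 cell cycle and translation targets, 1 lay above (5.26%, beside 12.7% of all genes) and 5 below (26.3%, beside 10.2%). Their median was -0.03, and 6 (31.6%) were above 0. Tert, the catalytic subunit of telomerase, had 129, 130.3 and 129 in the controls and 256 and 183 in the knockdown lines (0.74, SE 0.24). Bmi1, a Polycomb protein, had 7239, 5365 and 6471 against 5037 and 5183 (-0.30, SE 0.13). Id2, which blocks E proteins, had 4405, 1995 and 1461 against 802 and 1036 (-1.36, SE 0.45, or -0.91 without the parental line). None of these genes passed in limma.

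Of 15 measured genes that MYC or MYCN is known to repress, 3 lay above (20%) and 3 below (20%) every control line. These shares were 12.7% and 10.2% over all genes. The median log2 change of the 15 was -0.15. It was -0.07 without the parental line. The change was above 0 for 5 of the 15 (33.3%), beside 55% of all genes. Clu, which encodes clusterin, had 112, 185 and 130.1 in the controls and 215 and 289 in the knockdown lines (0.84, SE 0.28). Ndrg4, of the NDRG family, had 1338, 2294 and 2003 against 2717 and 2747 (0.58, SE 0.22). Ngfr, the p75 neurotrophin receptor, went the other way by 1454903_at at -1.11 (SE 0.14, with 0.135 as limma's adjusted p), and Dkk1, a Wnt inhibitor, at -0.72 (SE 0.15). Ndrg1, Cdkn2b, Cdkn1c, Cebpa and Thbs1 did not pass the filter.

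Of 17 co-activators 1 lay above and 1 below every control line (5.88% each, beside 12.7% and 10.2% of all genes). Their median log2 change was 0.02. Ruvbl1, an ATPase of chromatin complexes that bind MYC, had 2008, 2060.0 and 2062 in the controls against 2459 and 2222 after knockdown. Kat2a, the 1 below, had 3222, 3412 and 3189 against 3131 and 2952. Of 15 SIN3 and NCOR co-repressor genes 0 lay above (beside 12.7% of all genes) and 2 below (13.3%, beside 10.2%). Their median was -0.00071. The 2 below were Hdac2 (-0.18, SE 0.10) and Rbbp7 (-0.19, SE 0.13). Of 11 partners of MGA in PRC1.6, 0 lay above (beside 12.7% of all genes) and 3 below (27.3%, beside 10.2%). Their median was -0.01. The 3 below were E2f6, Rnf2 and Yaf2, with nearest lines 1.24-fold, 1.08-fold and 1.04-fold apart. E2f6, the E2F family repressor of that complex, had 668, 525 and 607 in the controls and 416 and 424 in the knockdown lines (log2 change -0.51, SE 0.18, and 0.916 as limma's adjusted p). Of 14 germline genes that PRC1.6 represses, 13 had a probe set and 1 passed the filter. This was Dazl, an RNA-binding protein of germ cells, with 191 in the parental line and 20.0 (empty vector) and 25.5 (EGFP) in the vector-carrying controls. After knockdown it had 44.1 and 51.0. It passed the filter, at a mean signal of 46.6, only through its parental signal.

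The 21 measured genes of MYC protein stability had a median log2 change of -0.03. Of the 21, 1 lay above and 1 below every control line (4.76% each, beside 12.7% and 10.2% of all genes). These were Trpc4ap, a ubiquitin ligase component (0.15, SE 0.15), and Cip2a, an inhibitor of the phosphatase PP2A (-0.07, SE 0.12). The MLX arm, a parallel network that senses glucose, had 3 measured genes, none with both knockdown lines on one side of every control line. Mlxip had 232, 267 and 341 in the controls against 329 and 396 after knockdown, and its target Txnip had 642, 586 and 518 against 535 and 425. Of 6 other factors that bind the E-box 1 lay below (16.7%, beside 10.2% of all genes). This was Mitf, with 113, 166 and 189 against 84.1 and 105 (-0.70, SE 0.30). Of 5 neighbours of MYCN and other neuroblastoma drivers 1 lay below (20%, beside 10.2% of all genes). This was Lin28a, an RNA-binding protein, with 2300.5, 2158 and 2764 against 1950.5 and 1880.0 (-0.32, SE 0.15). Ddx1 and Nbas, which often lie on the MYCN amplicon in human tumours, had log2 changes of -0.11 and -0.15, with groups that overlapped.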

How the data were processed

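RNA of 5 Neuro2A lines was hybridised to 1 array each. MAS5 produced the deposited intensities, which are linear and were scaled by the authors before deposit, as the processing notes of the submitters and the values show. No version of MAS5 is stated in these sources. The 2% trimmed mean over all 45101 probe sets was 500.0 on every array, and no further scaling was applied. After removal of 64 AFFX controls, log2 intensities with a mean at or above the median (22519 probe sets) were fitted in limma 3.58.1 (R 4.3.3; lmFit, eBayes with trend and robust, Benjamini-Hochberg over all kept probe sets, 3 residual degrees of freedom), and a model with 3 groups gave the single knockdown lines. No detection calls were used here, and 5 arrays limit the precision.

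The members and lists were chosen with earlier results of these data known. Symbols came from the platform annotation, and all 10 genes kept theirs in the RefSeq table of GRCm38.p6. Named were all member probe sets and, from each of the 12 lists, genes past the threshold or else up to 2 each way. The latter had the largest change among genes whose groups did not overlap. For the nucleolar and the metabolic lists not all of these are printed. Yaf2, Dazl, Mlxip, Txnip, Ddx1, Nbas and the examples of like profiles were named after their values were seen. Like profiles were sought for the 3 member probe sets of widest span, among genes with at least 0.8 of that span.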

Additional observations from a re-analysis of the deposited data

How the results depend on the processing

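Under the alternative settings, the 16 network probe sets gave 186 values of knockdown against control. All had an adjusted p above 0.05 in limma, 157 kept the sign and 29 turned it; Mycn 1417155_at, Mxi1 1425732_a_at and Mga 1431232_a_at never turned. Turned values were small after rescaling. Median centring moved the median of all probe sets from 0.03 to -0.08 and gave -0.11 for Myc, -0.088 for Mxd4 1422575_at, -0.057 for Mxi1 1450376_at, -0.050 for Mnt, -0.076 for Mga 1422646_at and -0.0086 for Mga 1434746_at. For Mxd4 1422575_at quantile normalization gave -0.080 and cyclic loess -0.078, and cyclic loess gave -0.011 for Mga 1422646_at. Leaving out 1 line at a time gave ranges of -0.997 to 0.14 for Mycn 1425922_a_at, -0.90 to 1.32 for Mycn 1425923_at, -0.16 to 0.15 for Myc, -0.28 to 0.0056 for Max, -0.60 to 0.13, -0.25 to 0.16 and -0.13 to 0.31 for Mxd3 1422970_at, 1438847_at and 1448878_at, -0.16 to 0.12 and -0.67 to 0.037 for Mxd4 1422575_at and 1434378_a_at, -0.022 to 0.13 for Mxi1 1450376_at, -0.062 to 0.18 for Mnt, and -0.14 to 0.20 and -0.048 to 0.22 for Mga 1422646_at and 1434746_at. The negative end for Mycn 1425923_at came without the parental line. The cause of the other turns was not tested.

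Counts over all probe sets moved as follows. Calls for knockdown against control were 1 after median centring, 0 after cyclic loess, 0 without trend and robust, and 0 to 4 without 1 line. For line 2 they were 2 when only probe sets over the 70th percentile were kept, 0 without trend and robust and 0 to 5 without 1 line. For line 1 they were 0 to 2 without 1 line. For line 2 against line 1 they were 0 without a filter, 0 without trend and robust and 0 to 2 without 1 line. Groups that do not overlap were 9669 of 45037 unfiltered and 3060 over the 70th percentile. Of 22519 probe sets they were 5131 in the main setting, 5341 after median centring and 8165 to 10215 without 1 line. In the network they were 3 of 16 after median centring, 0 of 10 with that filter and 1 to 5 without 1 line. Probe sets at least 2-fold beyond every control were 978, 7, 10 (offset of 32) and 48 to 170 without 1 line.

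No paired analysis was possible because the labels number the knockdown lines by vector and give the control lines no numbers. MAS5 signals near 40.5 or lower limit what can be read from Mycl, Mxd1 and the dim probe sets of Mycn, Mxd4 and Mga.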
